A study of Mus musculus with 12 samples.

Results

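The genes described here are 9 genes of transforming growth factor beta (TGF-beta) signalling in the mouse corneal endothelium, taken by name from the 32761 genes of the count table. They are the ligands Tgfb1, Tgfb2 and Tgfb3, the receptors Tgfbr1, Tgfbr2 and Tgfbr3, the signal carrier Smad3, its inhibitor Smad7 and the target gene Tgfbi. All 9 passed the low-count filter that left 17965 genes for testing. RNA was sequenced from the corneal endothelium, a sheet of cells on the inner face of the cornea that keeps it clear by pumping water out, in 4 groups of 3 libraries. Early mutants carried the Col8a2 Q455K allele on both chromosomes and were at most 2 months old, and early wild-type mice were of the same stage without that allele. Late mutants had the same homozygous genotype and were at least 8 months old, and late wild-type mice were of that stage. Col8a2 codes for collagen VIII alpha 2, part of the basement membrane of these cells, and the mutant is a mouse model of early-onset Fuchs endothelial corneal dystrophy. The early libraries are labelled batch 1 and the late libraries batch 2, and so the effects of age and of batch cannot be told apart. The libraries are called biological replicates, but the sources used here do not give the number of animals behind each one, and the p-values measure only the spread between these libraries.

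TGF-beta ligands are secreted in a latent form, held by latency proteins and matrix until proteases, integrins or thrombospondin release them. The active ligand binds the type II receptor Tgfbr2, which switches on the type I receptor Tgfbr1, and this receptor phosphorylates Smad2 and Smad3, which enter the nucleus with Smad4. Tgfbr3, also called betaglycan, is a co-receptor that presents ligand, above all Tgfb2, while Smad7 is a target of the pathway that blocks the type I receptor. In the anterior eye Tgfb2 is the main TGF-beta of the aqueous humour that bathes this cell layer, and TGF-beta is known to restrain division of corneal endothelial cells. Tgfbi encodes a secreted matrix protein of the cornea, named for its induction by TGF-beta, and changes in the human gene cause corneal dystrophies.

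Total counts ran from 19722598 to 39431676 per library, at which 3 counts correspond to 0.0773 to 0.132 CPM, a read count scaled to the TMM-adjusted library size. Markers of the corneal endothelium ranged widely in level over the 12 libraries. Slc4a11 was at 1830 to 6150 CPM and Col8a2 at 605 to 1740 CPM. Others of the list were low, with Foxc1 at 11 to 42.3 CPM and Car2 at 2.83 to 9.97 CPM. Late wild-type replicate 1 lay 293 and 267 times the sampling noise from replicates 2 and 3 of its group, against 64.5 between those replicates. Early wild-type replicate 1 lay 184 and 219 times the sampling noise from replicates 2 and 3 of its group, against 66.5 between those replicates. Early wild-type replicate 2 had the fewest counts. No fit left out early wild-type replicate 1 together with late wild-type replicate 1. Values without late wild-type replicate 1 and early wild-type replicate 2 are given where they change a call. Markers of some other cell types differed between genotypes, and those of others had no call. Of all tested genes 0.557% were called higher and 0.0334% lower in early mutants. In late mutants 2.77% were called higher and 2.71% lower, and the marker counts that follow stand against these shares. Of 15 macrophage and myeloid markers 7 were higher in early mutants (summed level 257 to 591 CPM, against 40.8 to 65.7 CPM in early wild type) and 12 in late mutants (412 to 502 CPM, against 43.3 to 65.6 CPM in late wild type). Of 5 trabecular meshwork markers 2 were higher in early mutants (235 to 626 CPM, against 77.4 to 125 CPM in early wild type) and 3 in late mutants (334 to 430 CPM, against 61.1 to 122 CPM in late wild type). The 8 keratocyte markers had 2 higher in early mutants (22600 to 25800 CPM, against 19100 to 29300 CPM) and 3 higher and 1 lower in late mutants (21500 to 32800 CPM, against 21000 to 26500 CPM). Of 7 photoreceptor markers 3 were higher in early mutants (120 to 274 CPM, against 16.6 to 41.3 CPM) and none in late mutants (46.3 to 244 CPM, against 31.1 to 96.2 CPM). Of 6 tested lens markers none was called early (102 to 200 CPM in mutants, against 134 to 586 CPM) and 2 were higher in late mutants (236 to 349 CPM, against 92 to 151 CPM). None of 6 melanocyte and iris pigment markers was called, and their summed level was 90.6 to 228 CPM in early mutants, against 29.2 to 42 CPM in early wild type, and 82 to 117 CPM in late mutants, against 10.3 to 122 CPM in late wild type. Epithelial and vessel markers had no call at either stage, and of 6 smooth muscle and pericyte markers 1 was lower in late mutants. The summed level of these 6 went the other way, at 276 to 315 CPM in late mutants, against 202 to 232 CPM in late wild type. Most of it was Acta2, at 123 to 286 CPM over the 12 libraries. Of 13 endothelial markers none was called early and 1 was lower in late mutants. Their summed level was 58000 to 70600 CPM in early mutants, against 59000 to 113000 CPM in early wild type. In late mutants it was 41400 to 71600 CPM, against 80800 to 102000 CPM in late wild type. Most of that sum was Car3, at 31000 to 101000 CPM over the 12 libraries. Most of the keratocyte sum was Dcn, at 15900 to 27800 CPM. No marker of these lists was at 0 in every library of a stage. The part of these other cells in the results below was not tested.

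RefSeq promoter windows, from 250 bases before to 50 bases after the transcript start on GRCm38.p6, were matched for 6 of the 9 genes. Those of Tgfbi, the gene with the largest called change, and of the ligands Tgfb2 and Tgfb1, the highest and the lowest of the ligands, are shown 5′ to 3′ on the strand of the gene. They are Tgfbi at chr13:56609336-56609635 on the plus strand, Tgfb2 at chr1:186705940-186706239 on the minus strand and Tgfb1 at chr7:25686752-25687051 on the plus strand. Capitals mark matches on either strand to the motifs searched.
Tgfbi: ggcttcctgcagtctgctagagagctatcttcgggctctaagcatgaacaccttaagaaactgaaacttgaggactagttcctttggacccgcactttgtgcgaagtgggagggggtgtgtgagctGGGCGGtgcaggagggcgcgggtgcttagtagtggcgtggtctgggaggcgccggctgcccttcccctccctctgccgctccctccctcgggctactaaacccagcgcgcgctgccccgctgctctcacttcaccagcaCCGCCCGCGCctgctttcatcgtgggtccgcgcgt
Tgfb2: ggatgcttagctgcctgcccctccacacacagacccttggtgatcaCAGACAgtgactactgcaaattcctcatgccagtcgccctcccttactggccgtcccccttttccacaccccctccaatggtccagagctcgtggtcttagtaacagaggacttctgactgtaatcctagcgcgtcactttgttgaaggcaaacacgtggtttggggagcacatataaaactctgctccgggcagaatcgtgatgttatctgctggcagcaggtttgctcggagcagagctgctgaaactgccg
Tgfb1: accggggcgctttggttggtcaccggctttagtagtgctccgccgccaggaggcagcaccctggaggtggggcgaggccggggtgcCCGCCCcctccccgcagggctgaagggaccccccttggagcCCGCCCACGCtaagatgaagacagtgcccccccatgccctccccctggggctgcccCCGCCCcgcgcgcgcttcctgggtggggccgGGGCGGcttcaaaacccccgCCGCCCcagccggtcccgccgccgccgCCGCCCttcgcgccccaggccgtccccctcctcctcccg
The motifs were GTCTAGAC, the SMAD palindrome, present in 0.213% of 32851 windows of this length, CAGACA, the CAGA box bound by SMAD3 with SMAD4 (21% of windows), TGANTCA, the AP-1 site (7.81%), GCGNGGGCG, the EGR1 site (5.55%), and GGGCGG, the GC box bound by SP1 (35.7%). The Tgfbi window held 1 EGR1 match that overlaps 1 of its 2 GC box matches. In the Tgfb2 window only a CAGA box was matched. The Tgfb1 window, with 77% G and C against 54.3% in that of Tgfb2, held 6 GC box matches, 1 of which overlaps an EGR1 match. None of the 3 windows held the SMAD palindrome or the AP-1 letters, which says nothing of binding elsewhere.

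Per unit of transcript length, the co-receptor and the ligand Tgfb2 led the set. Mean levels over the 12 libraries, in the authors' FPKM, a fragment count scaled to transcript length and library size, were 22.4 ± 7.25 for Tgfbr3, 11.1 ± 2.19 for Tgfb2 and 5.15 ± 2.24 for Tgfb3 (SD, n = 12). Smad3 followed at a level of 3.92 ± 1.17 FPKM, Tgfbr2 at 3.55 ± 1.02 FPKM and Tgfbr1 at 2.98 ± 0.901 FPKM. The lowest levels were those of Tgfbi at 1.42 ± 1.16 FPKM, Smad7 at 0.388 ± 0.24 FPKM and Tgfb1 at 0.188 ± 0.191 FPKM. By level Tgfbr3 lay above 87.2% of the tested genes and Tgfb2 above 80.7%, while Tgfb1 lay above 19.3%. Tgfbr3 was above Tgfb2, Tgfb2 above Tgfb3, Tgfbr1 above Tgfbi and Tgfbi above Smad7 in each of the 12 libraries, although the ranges of each such pair over all libraries overlap. The order between Tgfb3, Smad3 and Tgfbr2 was not settled, with Tgfb3 above Smad3 in 7 of 12 libraries and Smad3 above Tgfbr2 in 8. The lengths implied by the authors' counts and FPKM were 8523 bases for Tgfb2, 2197 for Tgfb1 and 4788 for Tgfbr2. Their annotated exon bases on GRCm38 were 5791, 5042 and 8187. The order between genes and the FPKM shares below depend on which lengths are used.

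**Figure D1:**
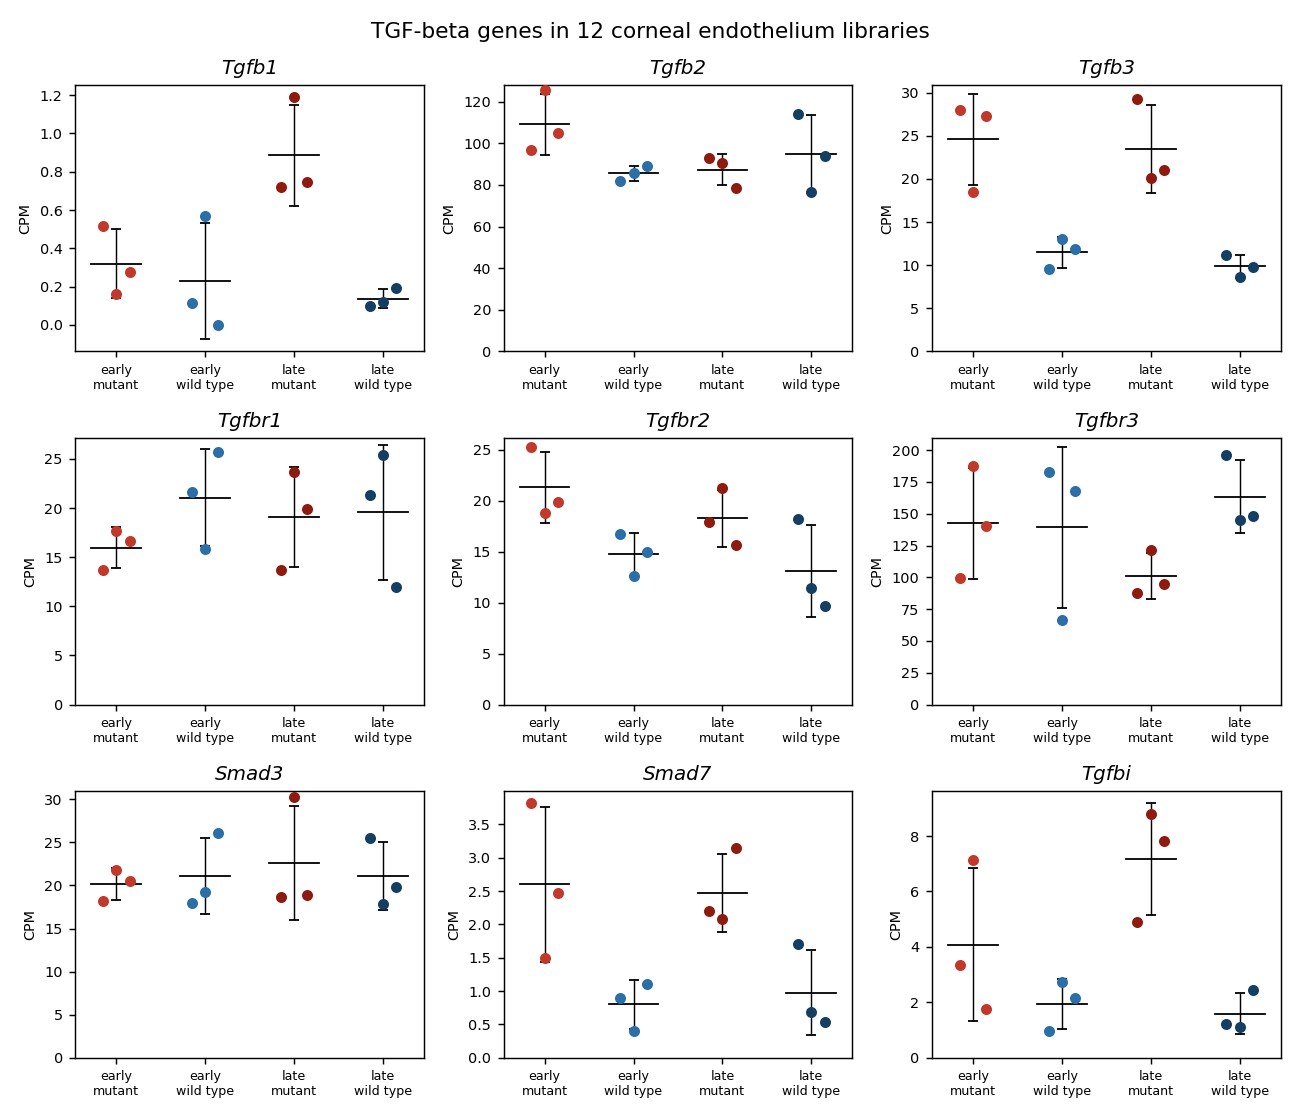
Level of each of the 9 genes in TMM-scaled CPM (vertical axes, separate scales) in the 12 libraries by group (horizontal axis), with points for libraries, a bar for the mean and whiskers for the SD of 3 libraries. Tgfb3 lies at 18.5 CPM or above in every mutant library and at 13.1 CPM or below in every wild-type library, and Smad7 is also higher without overlap at both stages.

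Within the ligands, Tgfb3 was the only one past the threshold. Tgfb3 was at 27.9, 18.5 and 27.3 CPM in early mutants, against 9.54, 13.1 and 11.9 CPM in early wild type. In the late groups Tgfb3 was at 29.3, 20.1 and 21 CPM in mutants, against 11.2, 8.59 and 9.79 CPM in wild type. Every mutant library was above every wild-type library, and early mutant replicate 2 was the lowest mutant library. Tgfb3 rose 2.38-fold in late mutants (log2 fold change 1.25 ± 0.28 SE, 95% interval 0.67 to 1.84, adjusted p = 0.0168 by edgeR's quasi-likelihood test with Benjamini-Hochberg adjustment over all tested genes). The early log2 fold change of 1.10 ± 0.28 was of like size but missed the threshold of 0.05 (2.14-fold, adjusted p = 0.0985 by the same edgeR test). Averaged over both stages the log2 fold change of Tgfb3 was 1.17 ± 0.20 (2.26-fold, adjusted p = 0.00115 by edgeR), a call that held in all 19 alternatives, and its change between the stages was 0.15 ± 0.39 (adjusted p = 0.912). By edgeR the late call was lost without late mutant replicate 1 (log2 fold change 1.06, adjusted p = 0.0854), late wild-type replicate 2 (1.16, adjusted p = 0.073) or late wild-type replicate 3 (1.25, adjusted p = 0.057), and adjusted p ran from 6e-04 to 0.085 over 20 alternatives. The early value passed without late wild-type replicate 1, whose group is not in that contrast but shares the fit (1.14, adjusted p = 0.0431 by edgeR), and with DESeq2's Wald test (1.11, adjusted p = 0.00863). In the authors' deposited table Tgfb3 had log2 fold changes of 1.06 early (q = 0.014) and 1.19 late (q = 0.017). In whole tissue, a change in the number of cells of a type and a change in RNA per cell cannot be told apart. Of the annotated exon bases of Tgfb3, 4.82% and 7.6% overlap the opposite-strand genes Gm37804 and Gm48008, and the sources used here do not say whether the counting used strand.

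Tgfb2, the ligand of highest level, was at 97, 126 and 105 CPM in early mutants, against 81.7, 85.6 and 89.2 CPM in early wild type. Late mutants held 93, 90.4 and 78.7 CPM of Tgfb2, against 114, 76.5 and 93.7 CPM in late wild type. The early groups did not overlap, with the mutants higher, while the late groups overlapped. The test found no call at either stage. Log2 fold changes of Tgfb2 were 0.35 ± 0.24 early (95% interval -0.15 to 0.85, adjusted p = 0.638 by edgeR) and -0.12 ± 0.24 late (95% interval -0.62 to 0.38, adjusted p = 0.78), and without late wild-type replicate 1 and early wild-type replicate 2 the late value was 0.16.

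Tgfb1, the broadly expressed founding ligand, was close to the limit of detection. Its counts were 19, 6 and 9 in early mutants, against 3, 13 and 0 in early wild type, the 0 allowing up to 0.0773 CPM. In late mutants there were 21, 40 and 23 counts of Tgfb1 (0.722, 1.19 and 0.745 CPM), against 3, 3 and 5 counts (0.0984, 0.12 and 0.194 CPM) in late wild type. The late groups did not overlap, and the early groups did. The late log2 fold change of 2.66 ± 1.26 missed the threshold (unadjusted p = 0.0487, adjusted p = 0.176 by edgeR), with a 95% interval of 0.02 to 5.29. The early value was 0.53 ± 1.20 (adjusted p = 0.876 by edgeR) and was -0.06 without early wild-type replicate 3 and 2.57 at its highest over the alternatives, so no early direction is given.

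Tgfb3 held a larger share of the ligand transcripts in late mutants than in late wild type. Of the summed FPKM of the 3 ligands, Tgfb3 made up 41.5%, 27% and 39.3% in early mutants, against 22.6%, 27.2% and 25.1% in early wild type. In late mutants its share was 43.5%, 34.7% and 39.3%, against 19.8%, 21.9% and 20.7% in late wild type. The late groups were apart, and in the early groups mutant replicate 2 lay within the wild-type range. The share of Tgfb2 was 54.8% to 62.1% in late mutants, against 77.6% to 80% in late wild type, and Tgfb1 reached 3.17% of the sum in late mutants, against 0.632% in late wild type. The shares are a description with no test, and their size depends on the lengths behind the FPKM.

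**Figure D2:**
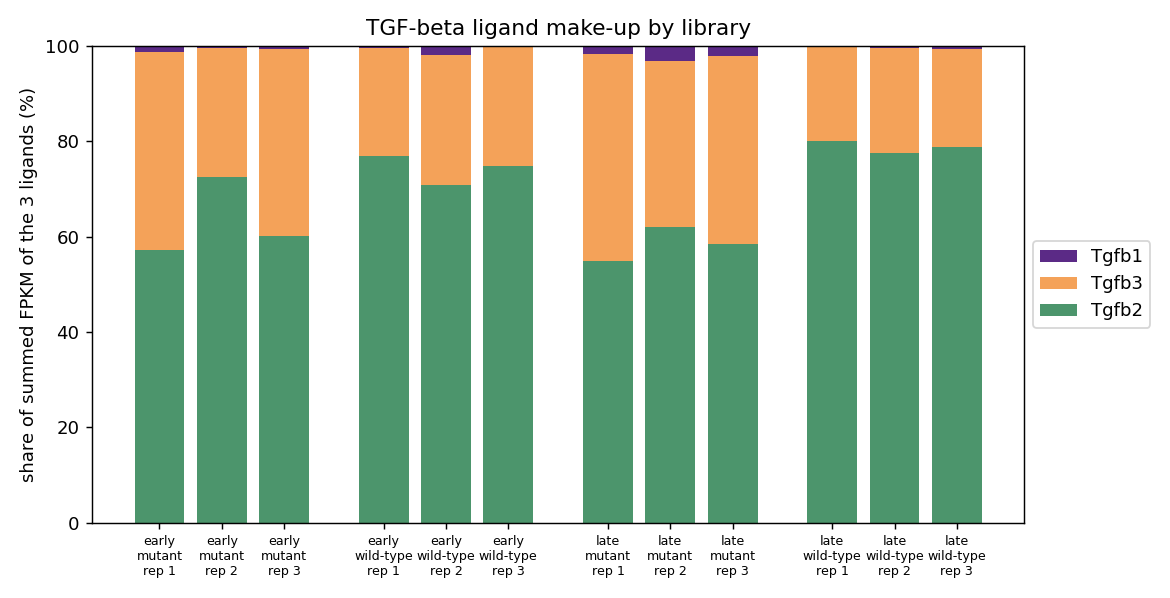
Share of each ligand in the summed FPKM of Tgfb1, Tgfb2 and Tgfb3 (vertical axis, percent) in each of the 12 libraries (horizontal axis, grouped by stage and genotype). The Tgfb3 segment covers 34.7% to 43.5% in late mutants and 19.8% to 21.9% in late wild type.

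Among the receptors none passed the threshold. Tgfbr2, the type II receptor that binds the ligand first, was at 25.3, 18.8 and 19.9 CPM in early mutants, against 16.8, 12.6 and 14.9 CPM in early wild type. In the late groups Tgfbr2 was at 17.9, 21.2 and 15.7 CPM in mutants, against 18.2, 11.4 and 9.67 CPM in wild type. The early groups did not overlap, and in the late groups wild-type replicate 1 lay among the mutants. Its log2 fold changes were 0.53 ± 0.29 early (adjusted p = 0.592 by edgeR) and 0.48 ± 0.29 late (adjusted p = 0.281). Averaged over both stages the log2 fold change of Tgfbr2 was 0.50 ± 0.20 (1.42-fold, unadjusted p = 0.0224, adjusted p = 0.137 by edgeR). Without late wild-type replicate 1 both the late value (0.92, adjusted p = 0.0315) and the average (0.75, adjusted p = 0.0125) passed, and without that library and early wild-type replicate 2 they were 0.91 (adjusted p = 0.0266) and 0.68 (adjusted p = 0.0219) by edgeR. Over all alternatives the adjusted p of the late value ran from 0.027 to 0.57 and that of the average from 0.012 to 0.31.

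Tgfbr3, the co-receptor of highest level in the set, was the one member with late mutants below late wild type without overlap. It was at 87.4, 121 and 94.5 CPM in late mutants, against 196, 145 and 148 CPM in late wild type. Early levels overlapped, at 99.5, 187 and 140 CPM in mutants, against 183, 66.8 and 168 CPM in wild type. The late log2 fold change of -0.69 ± 0.33 (0.619-fold) missed the threshold (95% interval -1.39 to 0.01, unadjusted p = 0.0516, adjusted p = 0.181 by edgeR), and the authors' deposited table gives -0.77 (q = 0.069). The early log2 fold change was 0.03 ± 0.33 (adjusted p = 0.977 by edgeR) and changed sign in 5 of 20 alternatives. Of the annotated exon bases of Tgfbr3, 4.54% overlap the same-strand gene Gm43422.

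Tgfbr1, the type I receptor kinase, overlapped between genotypes at both stages. It was at 13.7, 17.6 and 16.6 CPM in early mutants, against 21.6, 15.8 and 25.7 CPM in early wild type, and at 13.6, 23.7 and 19.9 CPM in late mutants, against 21.3, 25.4 and 12 CPM in late wild type. The log2 fold changes were -0.40 ± 0.31 early (adjusted p = 0.669 by edgeR) and -0.03 ± 0.31 late (adjusted p = 0.958), and the late value changed sign in 10 of 20 alternatives. Within the summed FPKM of the receptors, Tgfbr3 held 70.9% to 71% in late mutants, against 79% to 86.2% in late wild type, and Tgfbr2 held 14.9% to 18.5% in late mutants, against 7.15% to 9.65% in late wild type. Those late shares did not overlap between genotypes, while the early shares of Tgfbr3 ran from 68.8% to 82.2% in mutants, against 68.3% to 81.4% in wild type.

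Inside the cell, the inhibitor Smad7 differed and the signal carrier Smad3 was not called. Smad7 was at 3.82, 1.5 and 2.47 CPM in early mutants, against 0.898, 0.396 and 1.11 CPM in early wild type. In the late groups Smad7 was at 2.2, 2.08 and 3.14 CPM in mutants, against 1.7, 0.682 and 0.544 CPM in wild type. Every mutant library was above every wild-type library of its stage. Smad7 rose 2.84-fold when averaged over both stages (log2 fold change 1.51 ± 0.43, adjusted p = 0.0408 by edgeR). At single stages it missed the threshold, with log2 fold changes of 1.68 ± 0.61 early (unadjusted p = 0.0124, adjusted p = 0.412) and 1.33 ± 0.60 late (unadjusted p = 0.0401, adjusted p = 0.159). The averaged call held in 8 of 18 alternatives (log2 fold changes 1.32 to 1.92, adjusted p from 0.0073 to 0.16 by edgeR and the other tools). It was lost without early mutant replicate 1 (1.32) or 3 (1.53), early wild-type replicate 1 (1.56), 2 (1.38) or 3 (1.67), late mutant replicate 1 (1.55) or 3 (1.45), or late wild-type replicate 2 (1.41) or 3 (1.37). With the replicate number as a block it was 1.59 (adjusted p = 0.0595 by edgeR). The late value passed without late wild-type replicate 1 (2.13, adjusted p = 0.0343) and without that library and early wild-type replicate 2 (2.13, adjusted p = 0.0245 by edgeR), against adjusted p values of up to 0.34 in the other alternatives.

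Smad3, which carries the signal to the nucleus, was at 18.2, 21.8 and 20.5 CPM in early mutants, against 18, 19.2 and 26.1 CPM in early wild type, and at 18.7, 30.2 and 18.9 CPM in late mutants, against 25.5, 17.9 and 19.9 CPM in late wild type. The groups overlapped at both stages. Its log2 fold changes were -0.07 ± 0.28 early (adjusted p = 0.937 by edgeR) and 0.10 ± 0.28 late (adjusted p = 0.837), and its sign changed in some alternatives of each.

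Tgfbi, the matrix protein gene named for its induction by TGF-beta, had the largest called change of the set. It was at 4.88, 8.78 and 7.84 CPM in late mutants, against 1.21, 1.12 and 2.45 CPM in late wild type. Early levels were 3.36, 7.13 and 1.76 CPM in mutants, against 0.973, 2.73 and 2.14 CPM in wild type. The late groups did not overlap, and in the early groups mutant replicate 3 lay below wild-type replicates 2 and 3. Tgfbi rose 4.49-fold in late mutants (log2 fold change 2.17 ± 0.53, 95% interval 1.05 to 3.29, adjusted p = 0.0271 by edgeR). The early log2 fold change was 1.07 ± 0.52 (unadjusted p = 0.053, adjusted p = 0.572 by edgeR). Averaged over both stages it was 1.62 ± 0.37 (3.07-fold, adjusted p = 0.0126 by edgeR), past the threshold in all 19 alternatives. The change between the stages was 1.10 ± 0.73 (adjusted p = 0.608 by edgeR), so the late effect was not shown to differ from the early one. The late call was lost without late mutant replicate 2 (2.09, adjusted p = 0.0534) or 3 (2.19, adjusted p = 0.072), without late wild-type replicate 2 (1.97, adjusted p = 0.0952), and with limma-voom (2.19, adjusted p = 0.0541), with adjusted p from 0.0011 to 0.095 over 20 alternatives. The authors' deposited table gives 2.07 for the late log2 fold change (q = 0.0043).

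**Figure D3:**
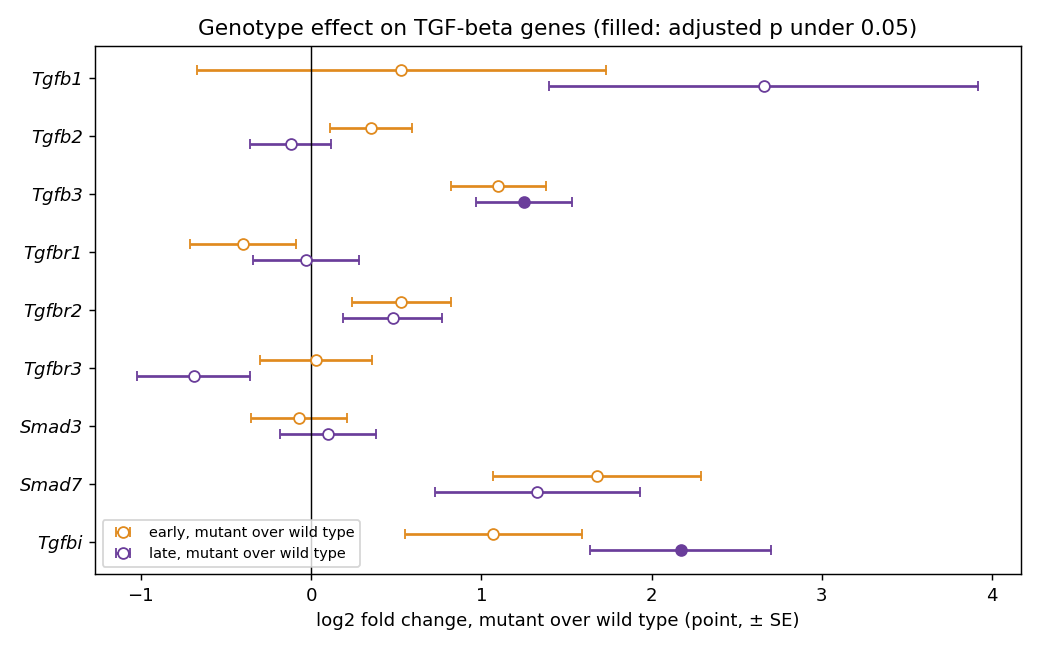
Log2 fold change, mutant over wild type (horizontal axis, point ± SE), of the 9 genes (vertical axis) early and late, with filled points for an adjusted p under 0.05 by edgeR. Only Tgfb3 (1.25) and Tgfbi (2.17) are filled, both late, and Tgfbr3 lies at -0.69 late.

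Over the set, 0 of 9 genes passed in early mutants by edgeR's quasi-likelihood test, where 0.59% of all tested genes did (0.557% higher and 0.0334% lower). At an unadjusted p under 0.05 there were 2, Tgfb3 and Smad7, and DESeq2 and limma-voom each called 1, Tgfb3. No share of all tested genes is given at the unadjusted cut, here or below, so counts at that cut have no background. In late mutants 2 of 9 passed, both higher, against 5.47% of all tested genes (2.77% higher and 2.71% lower), and DESeq2 also called 2 while limma-voom called 1. The late count was 0 without late wild-type replicate 2 and 4 without late wild-type replicate 1, and 1 without any single late mutant library or late wild-type replicate 3. For the average of both stages 3 of 9 passed, all higher, against 6.85% of all tested genes (4.04% higher and 2.81% lower). None was called at both stages, where 0.534% of all tested genes were called higher. For the change of the genotype effect between stages 0 of 9 passed, against 0.00557% of all tested genes, with none at an unadjusted p under 0.05 and none by DESeq2 or limma-voom (adjusted p from 0.594 to 0.974 by edgeR). The median log2 fold change of the 9 was 0.53 early and 0.48 late, against -0.11 early and 0.00 late over all tested genes. Without overlap between genotypes, 4 of 9 were higher and none lower in early mutants, against 10.1% and 11.8% of all tested genes. In late mutants 4 were higher and 1 lower, against 14.9% and 10.9%, or 25.9% of all tested genes in either direction. Tgfb3 and Smad7 were higher without overlap at both stages, as were 3.89% of all tested genes, and none of the 9 was lower at both, against 2.03%. The 9 genes were chosen with earlier results of these data known, so these counts are a description.

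Between late and early libraries of the same genotype none of the 9 genes passed by edgeR, in mutants or in wild type, where 0% of all tested genes did. None had an unadjusted p under 0.05, and DESeq2 and limma-voom called none. Late over early, Tgfb3 had log2 fold changes of -0.07 ± 0.27 in mutants and -0.22 ± 0.28 in wild type, and Tgfbi of 0.81 ± 0.51 in mutants and -0.29 ± 0.53 in wild type.

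Of 59 other genes of the pathway, all of which were tested, 6 rose and none fell in late mutants by edgeR, against 2.77% and 2.71% of all tested genes. Of the 6, 4 belong to the list of latency and activation. The lists were chosen with earlier results of these data known. Their counts and shares set against all tested genes, here and below, are thus a description and not a test. DESeq2 called 15, all higher, and limma-voom called 7 higher and 1 lower, the lower one being Usp15, a deubiquitinase of the pathway named after its values were seen. The median late log2 fold change of the 59 was 0.54, and 27 of them (45.8%) were higher in late mutants without overlap while none was lower, against 14.9% and 10.9% of all tested genes. In early mutants 0 of the 59 passed by edgeR, against 0.59% of all tested genes, and 13 had an unadjusted p under 0.05. DESeq2 called 0 and limma-voom 1, and the median was 0.14, against -0.11 over all tested genes. Without overlap, 12 of the 59 (20.3%) were higher and 2 (3.39%) lower in early mutants, against 10.1% and 11.8% of all tested genes. Averaged over both stages 13 rose and none fell by edgeR, against 4.04% and 2.81% of all tested genes, and with no low-count filter 14 were higher and 1 lower, Postn. Single libraries moved the late count, to 1 without late mutant replicate 1, to 2 without late mutant replicate 3, late wild-type replicate 2 or late wild-type replicate 3, to 3 without early mutant replicate 3, and to 18 without late wild-type replicate 1. The averaged count was 5 without early mutant replicate 1. Without late wild-type replicate 1 and early wild-type replicate 2 it was 21 both late and averaged.

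Genes of latency and activation had 4 of 14 higher in late mutants, against 2.77% of all tested genes. The median log2 fold change of the 14 was 0.73 late and -0.05 early, against 0.00 late and -0.11 early over all tested genes. Thbs1, encoding thrombospondin 1, which releases active TGF-beta from its latent complex, rose 2.24-fold, with levels of 453 ± 73.3 CPM in late mutants and 202 ± 73.7 CPM in late wild type (SD, n = 3 each, adjusted p = 0.0297 by edgeR). Early levels of Thbs1 were 501 ± 97 CPM in mutants and 269 ± 70.9 CPM in wild type (adjusted p = 0.306 by edgeR). Itgb5, the beta subunit of an integrin that can bind and activate latent TGF-beta, rose 2.06-fold, with 57.9 ± 2.39 CPM in late mutants and 28.1 ± 11.4 CPM in late wild type (adjusted p = 0.0357 by edgeR). Lrrc32, a membrane anchor for latent TGF-beta also called GARP, rose 3.48-fold, with 7.21 ± 1.97 CPM in late mutants and 2.06 ± 1.34 CPM in late wild type (adjusted p = 0.0343 by edgeR). Ltbp1, which ties latent TGF-beta to the matrix, rose 2.55-fold, with 7.24 ± 0.923 CPM in late mutants and 2.84 ± 1.12 CPM in late wild type (adjusted p = 0.0489 by edgeR). Lrrc32 and Ltbp1 had early log2 fold changes of -0.34 ± 0.46 and -0.13 ± 0.39, and neither change between stages passed (adjusted p = 0.196 for Lrrc32 and 0.29 for Ltbp1 by edgeR). The late groups of all 4 genes did not overlap. Each call was lost without some single libraries, while the log2 fold changes stayed above 0 in all alternatives. The call of Thbs1 held in 15 of 20 alternatives (log2 fold change 0.99 to 1.63), that of Lrrc32 in 12 (1.41 to 2.52), that of Itgb5 in 11 (0.85 to 1.56) and that of Ltbp1 in 8 (1.23 to 1.72). Thbs1 lost it without late mutant replicate 1 or 3 or late wild-type replicate 2 or 3, and Lrrc32 without any of these, late mutant replicate 2 or early mutant replicate 3. Itgb5 lost it without any of those or early mutant replicate 1. Ltbp1 lost it without any single mutant library of either stage, early wild-type replicate 3 or late wild-type replicate 3. The log2 fold change of Lrrc32 was 2.52 without late wild-type replicate 1, against 1.80 with all libraries.

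Of the 5 other receptors and receptor modulators none passed at a single stage by edgeR, against 0.59% early and 5.47% late of all tested genes. At an unadjusted p under 0.05 there were 2 early and 3 late. Averaged over both stages 2 of the 5 passed, both higher, against 4.04% of all tested genes called higher. Eng, the endoglin co-receptor, was at 50.6 ± 12 CPM in early mutants and 27.6 ± 4.99 CPM in early wild type (adjusted p = 0.316 by edgeR), and rose 1.73-fold averaged over both stages (adjusted p = 0.0238). The other was Bambi, a decoy receptor named after its values were seen (3.63-fold, adjusted p = 0.0202 by edgeR). Cd109, a co-receptor that dampens TGF-beta signalling, was at 2.18 ± 0.799 CPM in late mutants and 0.266 ± 0.268 CPM in late wild type (adjusted p = 0.0839 by edgeR). None of the 3 other Smad genes was called or had an unadjusted p under 0.05 at a single stage by edgeR, and Smad2 was at 42.9 ± 5.35 CPM in late mutants and 30.4 ± 10 CPM in late wild type (adjusted p = 0.238 by edgeR).

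Among 15 intracellular regulators 1 passed late by edgeR, against 5.47% of all tested genes (2.77% higher and 2.71% lower). Their median late log2 fold change was -0.11, against 0.00 over all tested genes. Of the 15 regulators 6 lay above 0, against 50.1% of all tested genes. Skil, which encodes SnoN, a repressor of Smad transcription, was at 74.7, 19.9 and 33.1 CPM in late mutants, against 12.9, 13.8 and 13.8 CPM in late wild type. Early levels of Skil were 13.5, 13.3 and 17.5 CPM in mutants, against 37, 15.6 and 18.6 CPM in wild type. The late groups did not overlap, and late mutant replicate 1 was far above the others. Skil rose 3.16-fold in late mutants (log2 fold change 1.66 ± 0.40, adjusted p = 0.0248 by edgeR), with an early value of -0.68 ± 0.39 (adjusted p = 0.601) and a change between stages of 2.34 ± 0.56 that missed the threshold (adjusted p = 0.118). Without late mutant replicate 1 the late log2 fold change of Skil was 0.98 (adjusted p = 0.157 by edgeR), and the call was also lost without late wild-type replicate 2 (1.68, adjusted p = 0.0835) or 3 (1.68, adjusted p = 0.0765), with adjusted p from 2.6e-05 to 0.16 over 20 alternatives. Pmepa1, a feedback inhibitor induced by the pathway, was at 64.9 ± 18.1 CPM in early mutants and 39.5 ± 8.55 CPM in early wild type (adjusted p = 0.503 by edgeR).

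Of 19 other target genes 1 rose late and 8 rose averaged over both stages by edgeR, against 2.77% and 4.04% of all tested genes, and none fell. The median late log2 fold change of these targets was 0.99, against 0.00 over all tested genes. Without overlap, 13 of 19 (68.4%) were higher in late mutants, against 14.9% of all tested genes. In early mutants 5 of 19 (26.3%) were higher and 1 (5.26%) lower without overlap, against 10.1% and 11.8%. As with the other lists, this describes genes chosen with earlier results known. Lox, which encodes an enzyme that cross-links collagen, was at 12.6, 8.21 and 9.81 CPM in late mutants, against 2.75, 3.57 and 3.03 CPM in late wild type. All late mutant libraries lay above all late wild-type libraries. Lox rose 3.27-fold (adjusted p = 0.008 by edgeR), the call among the 6 that held in all 20 alternatives. Early Lox levels were 9.1 ± 2.62 CPM in mutants and 6.61 ± 0.974 CPM in wild type (adjusted p = 0.647 by edgeR). Snai1, a transcription factor of mesenchymal transition, was at 4.09 ± 2.33 CPM in early mutants and 1.33 ± 0.484 CPM in early wild type (adjusted p = 0.265 by edgeR) and rose 2.72-fold averaged over both stages (adjusted p = 0.019). Of the 3 matrix proteoglycans that bind TGF-beta, 1 passed averaged over both stages, against 4.04% of all tested genes called higher. This was Bgn, which rose 1.49-fold (adjusted p = 0.0475 by edgeR). None of the 3 passed at a single stage, with 1 late and none early at an unadjusted p under 0.05.

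**Figure D4:**
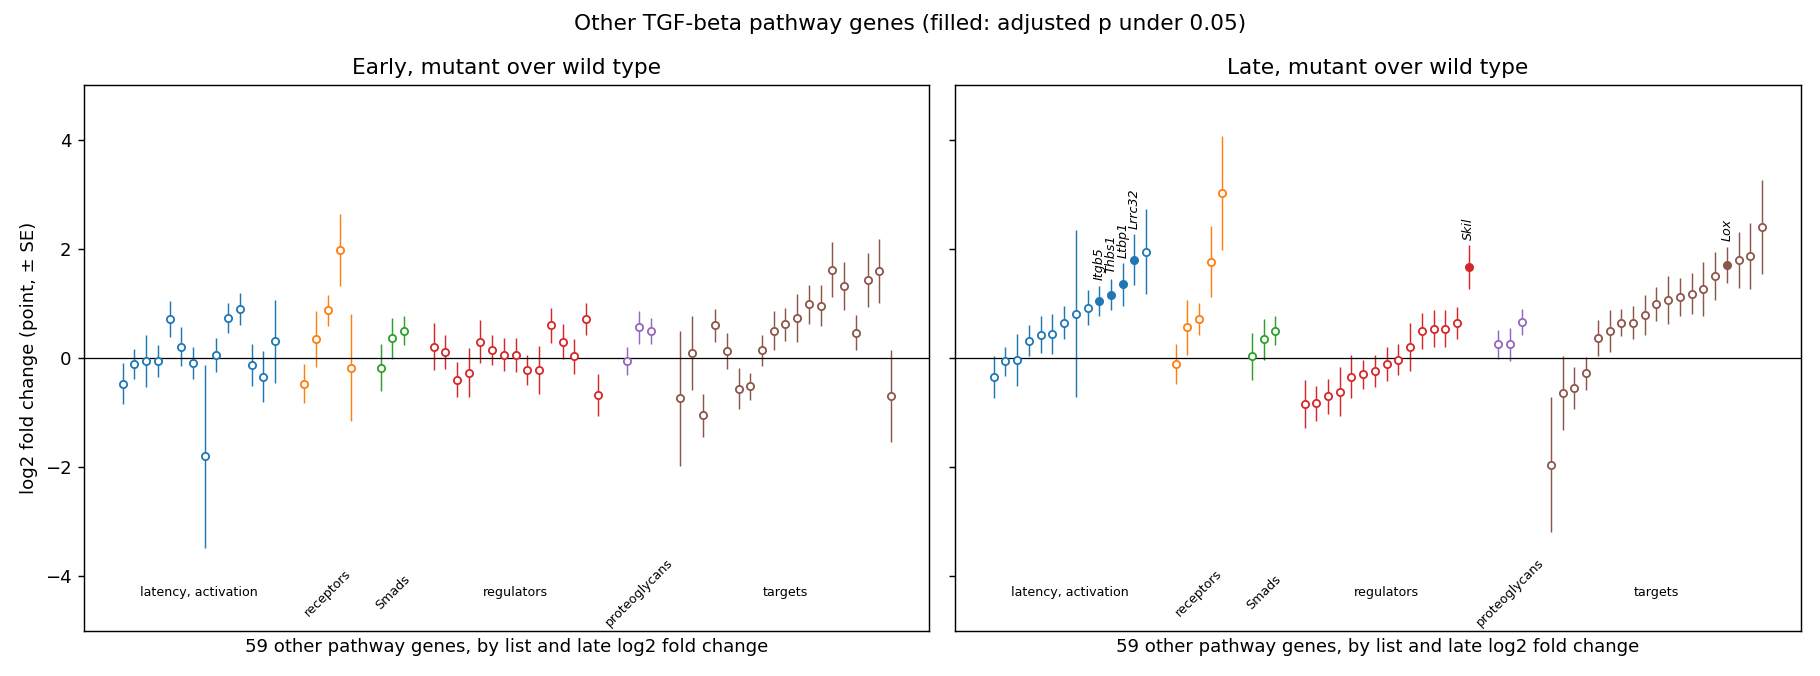
Log2 fold change, mutant over wild type (vertical axis, point ± SE), of 59 other pathway genes ordered by list and late log2 fold change (horizontal axis), early on the left and late on the right, with filled points for an adjusted p under 0.05 by edgeR. No point is filled early, and Thbs1, Itgb5, Lrrc32, Ltbp1, Skil and Lox are filled late, all above 0.

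In the wider family of bone morphogenetic proteins, activins and their receptors, 14 of 15 genes were tested and none passed at a single stage by edgeR, with 2 early and 3 late at an unadjusted p under 0.05. Gdf15, a stress-induced distant member of the family, was at 3.2, 0.628 and 0.866 CPM in early mutants, against 0.15, 0.044 and 0.0258 CPM in early wild type. All early mutant libraries were above all early wild-type libraries, which held 4, 1 and 1 counts. Gdf15 missed the threshold early (log2 fold change 4.38 ± 1.04, adjusted p = 0.0702 by edgeR) and rose averaged over both stages (3.72 ± 0.71, adjusted p = 0.00337). It was the 1 gene of the 14 to pass for the average, against 4.04% of all tested genes called higher. Gdf11 was at 9.3 ± 6.29 CPM in late mutants and 23.6 ± 8.8 CPM in late wild type (adjusted p = 0.0571 by edgeR).

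Among 9076 genes of at least 5 CPM, the 3 whose log2 level was closest to that of Tgfb3 over the 12 libraries were Plat, the tissue plasminogen activator (Pearson r = 0.979, Spearman rho = 0.937), Ptgs2, the inducible prostaglandin synthase (r = 0.975, rho = 0.951), and Calr, a calcium-binding chaperone of the endoplasmic reticulum (r = 0.973, rho = 0.951). These correlations are descriptions across libraries that share their genotype split, and the genes were picked as the highest. Plat was at 165 ± 60.5 CPM in late mutants and 19.3 ± 3.01 CPM in late wild type (8.54-fold, adjusted p = 5.33e-05 by edgeR). Calr rose 2.72-fold late (311 ± 47.1 CPM in late mutants and 114 ± 14.3 CPM in late wild type, adjusted p = 0.00405 by edgeR). Closest to Tgfbi were Adh7 (r = 0.915), Vcp (r = 0.883) and Bin1 (r = 0.877), and closest to Smad7 were Pbxip1 (r = 0.936), Mtmr14 (r = 0.930) and Kcnf1 (r = 0.923). Of these, Bin1 passed in late mutants (3.14-fold, adjusted p = 0.0187 by edgeR), and the other 5 passed at neither stage.

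**Figure D5:**
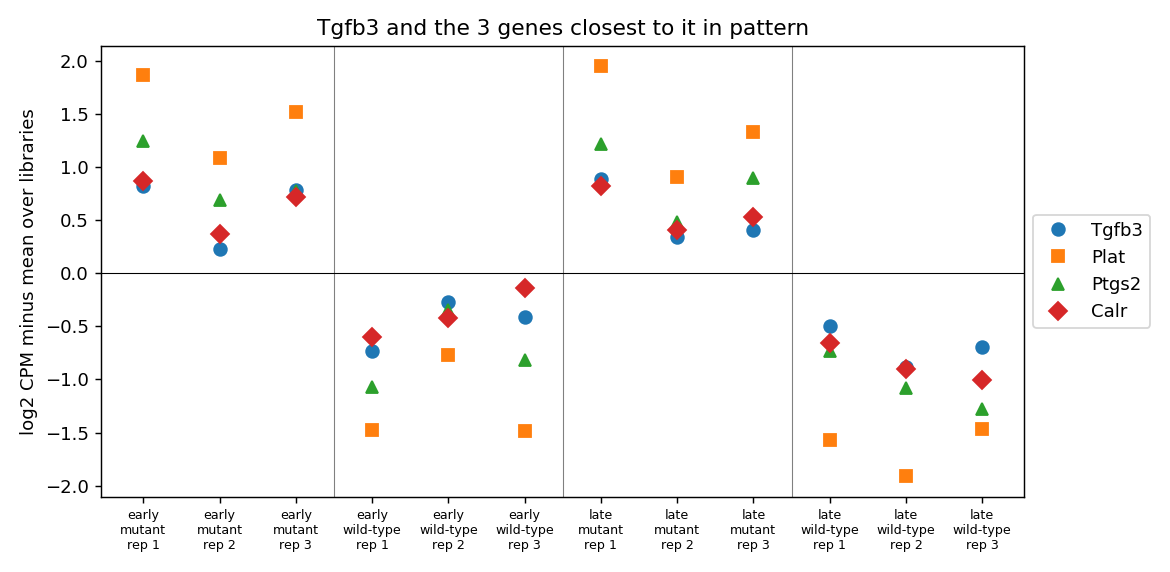
Log2 CPM minus its mean over the 12 libraries (vertical axis) of Tgfb3, Plat, Ptgs2 and Calr in each library (horizontal axis, vertical lines between groups). All 4 genes lie above 0 in every mutant library and below 0 in every wild-type library.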

How the data were processed

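RNA from corneal endothelium was sequenced in 12 libraries. Per the submitters' processing notes the build was GRCm39 and the tools, given with no versions, were DESeq2, HTSeq, HISAT2 and fastp, and the sources used here do not give the strand setting or any batch adjustment. For each gene the authors deposited a whole-number read count and an FPKM value. The authors' tables of their own comparisons hold a fold change as a ratio, its log2, and a p-value and q-value, per the file headers. From the counts, levels (CPM on TMM library sizes) and tests were computed with edgeR 4.0.16 in R 4.3.3. After filterByExpr on the 4 groups, which removed 14796 genes, 1 robust quasi-likelihood model was fitted to every library, leaving 8 residual degrees of freedom. P-values were adjusted by Benjamini-Hochberg over 17965 genes at a threshold of 0.05. Groups come from the labels. Total counts, given above, set the depth, and limits from 3 counts cover counting error only. FPKM served for levels between genes. The member genes, pathway lists and marker lists were chosen with earlier results of these data known. Named pathway genes are those past the threshold at a stage, or the gene of smallest p in a list with none. Genes closest in pattern are the 3 of highest Pearson r on log2 CPM with a prior count of 2. The edgeR model was tested on data simulated with changes in genes of at least 5 CPM. Of 100 changes of 2-fold it recovered 13 early and 12 late, and of 100 changes of 4-fold 91 at each stage. It also called 4 unchanged genes early and 7 late. A gene that missed the threshold is thus not shown to be unchanged. Tgfb1, Tgfbi and Smad7 had mean levels over the 12 libraries under 5 CPM, so these rates do not cover them. The simulation also changed fewer genes than were called late in the data, so the late rates may differ from those in the data. Libraries that share a number across genotypes showed correlations of their deviations of only -0.09 to 0.08 and were not taken as pairs. Exon overlaps come from an annotation of GRCm38, another build than that of the files. Alternatives were DESeq2 size factors in edgeR, no filter, at least 5 CPM in 3 libraries, DESeq2 1.42.0, limma-voom (limma 3.58.1), single stages, a replicate block and leaving out each library. Leaving out late wild-type replicate 1 with early wild-type replicate 2 was chosen after seeing the data.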

Additional observations from a re-analysis of the deposited data

How the results depend on the processing

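With no low-count filter 1 of the 9 genes passed early (Tgfb3, log2 fold change 1.16), 361 genes in all early, 1507 late, and 1 early and 10 late of the 59 other pathway genes. DESeq2's Wald test gave 1 of the 9 early, 250 genes early, 2514 late and 2206 averaged, and 15 of the 59 late. Limma-voom gave 1 of the 9 at each stage, 1728 genes late, 2306 averaged and 1 of the 59 early. Fits of single stages gave 489 genes and 2 of the 59 late. Nothing in the sources used here says that the replicate numbers pair the libraries. The replicate block gave 0 of the 9 early, 2 late and 2 averaged, 456 genes late, 782 averaged, and 3 of the 59 late, with Lrrc32 at 1.96, Itgb5 at 1.12, Ltbp1 at 1.41 and Skil at 1.44 past no threshold. Without the pair of late wild-type replicate 1 and early wild-type replicate 2, 4 of the 9 passed late, 4371 genes late and 3285 averaged, and 21 of the 59 late and averaged. Leaving out each library gave 0 to 1 of the 9 early, 0 to 4 late and 2 to 4 averaged, 51 to 179 genes early, 229 to 3909 late and 566 to 3004 averaged, and 1 to 18 of the 59 late and 5 to 18 averaged. Genes of the 59 called lower were Usp15 late with limma-voom (-0.94), without late wild-type replicate 1 and without the pair, Nedd4l late without late mutant replicate 2 (-1.51), and Postn averaged with no filter (-0.73) and without early wild-type replicate 3 (-0.93). The main counts were 106 genes early, 983 late and 1230 averaged. The causes were not tested.

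Log2 fold changes that turned sign were all of uncalled values. That of Tgfbr1 late was 0.02 with no filter and with the filter of 5 CPM, 0.12 with limma-voom and 0.15 without the pair of libraries. That of Tgfbr3 early was -0.05 with the 5 CPM filter, -0.01 in the single-stage fit and -0.29 without the pair. Smad3 averaged was -0.01 with the 5 CPM filter, and Tgfb2 late was 0.16 without the pair. Leaving out each library gave -0.06 to 2.56 for Tgfb1 early, -0.25 to 0.17 for Tgfb2 late, -0.05 to 0.34 for the change of Tgfb3 between stages, -0.28 to 0.20 for Tgfbr1 late and -0.28 to 0.29 for Tgfbr3 early. It gave -0.15 to 0.13 for Smad3 early, -0.09 to 0.39 late and -0.06 to 0.18 averaged. The 5 CPM filter removed Tgfb1 and Smad7, so it gave no value for them. Depth limits Tgfb1 most, at 0 to 13 counts in wild type.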
